A study of Sus scrofa with 6 samples.

Results

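The vascular endothelial growth factor (VEGF) ligands, their receptors and the hypoxia-inducible factors were followed in the longissimus thoracis (LT) and semitendinosus (ST) muscles of pigs. The genes asked for were VEGFA, VEGFB, VEGFC, PGF, FLT1, KDR, FLT4, NRP1, EPAS1 and HIF1A, of which 9 of 10 were found by their Ensembl gene ID, among 36050 gene IDs in the files. They were selected by name from this family after the LT and ST values of VEGFA and EPAS1 had been seen, so that the values below are a description of the 9 genes and no test of a difference between the muscles. The gene lists used further below were also chosen with earlier results of these data known. Their counts and shares, set beside those of all genes, are likewise a description and no test. VEGFB was not found under its Ensembl ID, its span on chromosome 2 is covered by a transcript of DNAJC4 and by an unannotated locus, and no value is given for it.

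Total RNA came from LT and ST of 3 Min pigs, a Chinese local breed, at 210 days of age, without treatment and with the genotype given as WT. Each muscle of each pig gave 1 library, so that there were 3 LT and 3 ST libraries, and the replicate number stands for the pig, so that LT replicate 1 and ST replicate 1 are muscles of 1 animal. Ribosomal RNA was removed before directional libraries were made. The values are FPKM, the fragments of a transcript per kilobase of its length, scaled to the mapped fragments of the library, and were summed over the transcripts of each gene. FPKM can therefore be compared between genes, but the fragments behind a single value were not analysed here, and the precision that depth gives to it is unknown.

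VEGFA is secreted by muscle fibres and other cells and acts on endothelial cells, in which KDR carries most of its growth signal, FLT1 binds it tightly with weak signalling, and NRP1 serves as a co-receptor. VEGFC and FLT4 are the ligand and receptor best known from lymphatic vessels. HIF1A and EPAS1 encode the oxygen-regulated subunits of the hypoxia-inducible factors, whose proteins are hydroxylated by the EGLN enzymes and degraded when oxygen is plentiful, and VEGFA is among their classical targets. In muscle, capillaries are denser around slow oxidative fibres than around fast glycolytic ones.

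The ST library of pig 2 stood apart from the other ST libraries in fibre genes. The summed FPKM of 7 slow-fibre genes was 36982, 5993 and 37242 in the ST libraries of pigs 1, 2 and 3, against 4458 to 6806 in LT. The summed FPKM of 4 fast-fibre genes was 4291, 18180 and 1058 in the same ST libraries, against 20314 to 27030 in LT. Counts of calls, and the differences of named genes that moved most with this library, are also given without it. Skeletal muscle itself was evident in all 6 libraries, with a summed FPKM of 7297 to 8127 in LT against 8078 to 10744 in ST for 5 genes of muscle fibres, although MYH1, MYH2, MYH4, MYH7, TTN and RYR1 were not matched. Mitochondrial transcripts took 2.91 to 4.25% of the fragments in LT against 6.15 to 8.48% in ST.

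VEGFA (ENSSSCG00000001695, chromosome 7 from 38746052 to 38761038, plus strand, Sscrofa11.1) was the most abundant of the VEGF ligands that had a value, which VEGFB did not. Its FPKM was 16.7, 10.9 and 13.7 in the LT libraries of pigs 1, 2 and 3, against 42.4, 40.6 and 41.0 in their ST libraries. All 3 ST libraries lay above all LT libraries, and they differed less among themselves than the LT libraries did. It averaged 13.8 ± 2.94 (SD, n = 3) in LT against 41.3 ± 0.937 (SD, n = 3) in ST, and the ST level was 2.53, 3.74 and 2.99 times the LT level within pigs 1, 2 and 3. The ST library of pig 2, whose fibre-gene sums were closer to LT than those of the other ST libraries, had a VEGFA level like theirs.

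VEGFC (ENSSSCG00000015770, chromosome 15 from 39037893 to 39133041, minus strand) was low. Its FPKM was 2.61, 1.60 and 1.52 in LT against 2.75, 3.50 and 3.41 in ST. The groups did not overlap, but pig 1 had almost the same level in both muscles, with a ratio of 1.05 against 2.18 and 2.25 in pigs 2 and 3.

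PGF (ENSSSCG00000050616, chromosome 7 from 98148964 to 98162741, minus strand), placenta growth factor, which binds FLT1 but not KDR, went the other way. Its FPKM was 2.04, 4.04 and 4.24 in LT against 1.35, 1.87 and 2.98 in ST. Each pig had less PGF in ST than in LT, at 0.665, 0.462 and 0.704 times the LT level, while the groups overlapped because the LT library of pig 1 was low. The files list the PGF transcripts as lncRNA, so its difference was taken from a fit over all genes, lncRNAs included. VEGFA made up 71.5% ± 6.29 (SD, n = 3) of the summed FPKM of VEGFA, VEGFC and PGF in LT against 88.7% ± 2.35 (SD, n = 3) in ST, without overlap. This sum leaves out VEGFB, which had no value, and VEGFD, with a mean FPKM of 3.45 in LT and 2.98 in ST.

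**Figure D1:**
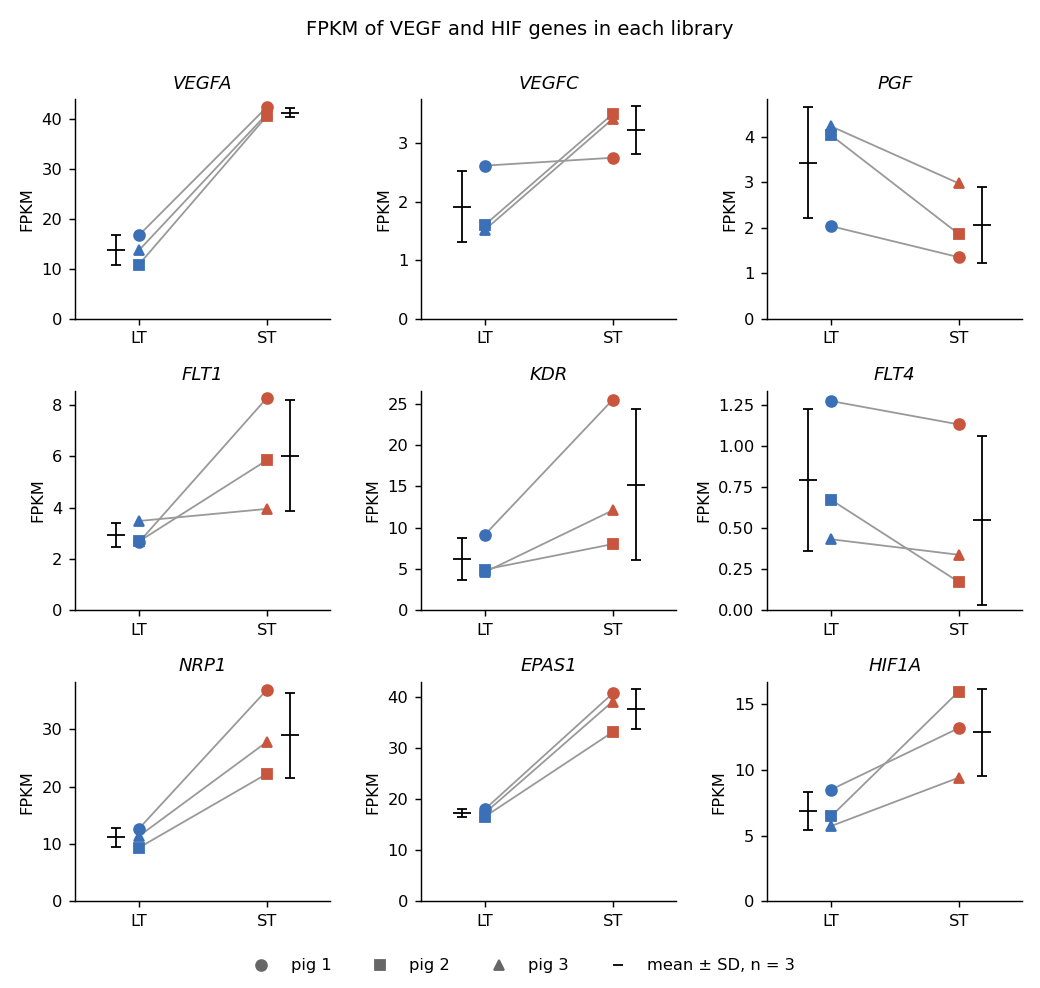
FPKM (vertical axes, each from 0) of the 9 genes in LT and ST. Symbols mark the 3 pigs, grey lines join the muscles of a pig, and black bars give the mean ± SD of 3 libraries; VEGFA in ST lies between 40.6 and 42.4, above all LT values of 10.9 to 16.7, whereas PGF and FLT4 are lower in ST in each pig.

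KDR (ENSSSCG00000008844, chromosome 8 from 41809116 to 41856339, minus strand), also called VEGFR2, was the most abundant of the 3 receptor tyrosine kinases. Its FPKM was 9.14, 4.91 and 4.60 in LT against 25.5, 7.99 and 12.1 in ST. Pig 1 was highest in both muscles, and the ST library of pig 2 lay below the LT library of pig 1, so that the groups overlapped. Within pigs the ST level was 2.79, 1.63 and 2.63 times the LT level.

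FLT1 (ENSSSCG00000009320, chromosome 11 from 5620700 to 5795264, minus strand), or VEGFR1, had an FPKM of 2.65, 2.68 and 3.48 in LT against 8.27, 5.85 and 3.95 in ST. The groups did not overlap, but the distance between them was small in pig 3, whose ratio was 1.14 against 3.12 and 2.18 in pigs 1 and 2. KDR had 2.20 ± 1.11 (SD, n = 3) times the FPKM of FLT1 in LT against 2.50 ± 0.983 (SD, n = 3) times in ST, with an overlap between the muscles.

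FLT4 (ENSSSCG00000014007, chromosome 2 from 78076080 to 78115137, plus strand), or VEGFR3, had the lowest level of the 9 genes in both muscles. Its FPKM was 1.27, 0.671 and 0.431 in LT against 1.13, 0.171 and 0.336 in ST. Pig 1 was highest in both muscles, and the spread between pigs was larger than the distance between the muscles. Within pigs the ST level was 0.888, 0.255 and 0.781 times the LT level.

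NRP1 (ENSSSCG00000011102, chromosome 10 from 56280363 to 56430777, minus strand), neuropilin 1, which also binds semaphorins, had an FPKM of 12.7, 9.36 and 11.4 in LT against 36.9, 22.2 and 27.8 in ST. All ST libraries lay well above all LT libraries. The ratios within pigs were 2.90, 2.37 and 2.44, the narrowest range among the receptors.

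EPAS1 (ENSSSCG00000008443, chromosome 3 from 94165815 to 94254079, minus strand), which encodes HIF-2α and is abundant in endothelium, had an FPKM of 18.02, 16.6 and 17.3 in LT against 40.6, 33.1 and 39.0 in ST. The groups lay far apart, and the LT libraries of the 3 pigs were close to each other. The means were 17.3 ± 0.727 (SD, n = 3) and 37.6 ± 3.98 (SD, n = 3), and the ratios within pigs were 2.25, 1.996 and 2.26.

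HIF1A (ENSSSCG00000005096, chromosome 1 from 190625181 to 190674850, plus strand), the more widely expressed of the α subunits, had an FPKM of 8.51, 6.47 and 5.73 in LT against 13.2, 16.0 and 9.42 in ST. The groups did not overlap, and the ST library of pig 2 was the highest. The FPKM of EPAS1 was 2.56 ± 0.447 (SD, n = 3) times that of HIF1A in LT against 3.10 ± 1.04 (SD, n = 3) times in ST, with an overlap.

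The order of mean FPKM in LT ran from EPAS1 at 17.3 over VEGFA at 13.8, NRP1 at 11.15, HIF1A at 6.90, KDR at 6.22, PGF at 3.44, FLT1 at 2.94 and VEGFC at 1.91 to FLT4 at 0.791. In ST it ran from VEGFA at 41.3 over EPAS1 at 37.6, NRP1 at 29.0, KDR at 15.2, HIF1A at 12.9, FLT1 at 6.02, VEGFC at 3.22 and PGF at 2.07 to FLT4 at 0.546. In LT the libraries of each gene overlapped with those of its next neighbour, except between NRP1 and HIF1A, between KDR and PGF, between FLT1 and VEGFC, and between VEGFC and FLT4. In ST the values of EPAS1 and VEGFA, of EPAS1 and NRP1, of NRP1 and KDR, of KDR and HIF1A, and of VEGFC and PGF overlapped, whereas HIF1A and FLT1, FLT1 and VEGFC, and PGF and FLT4 were apart.

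On the log2(FPKM + 0.1) scale the difference of ST minus LT was 1.60 ± 0.20 (SE) for VEGFA, 1.35 ± 0.23 for NRP1, 1.18 ± 0.43 for KDR, 1.11 ± 0.16 for EPAS1, 0.96 ± 0.28 for FLT1, 0.88 ± 0.25 for HIF1A, 0.76 ± 0.25 for VEGFC, −0.65 ± 0.58 for FLT4 and −0.71 ± 0.36 for PGF. Thus 7 of the 9 genes were higher in ST in every pig and 2 were lower in every pig. The share of all genes with 1 direction in every pig was not counted, and nothing is read from these counts. The median difference of the 9 genes was 0.96, and that of all 19672 genes tested was 0.13. All 9 genes passed the minimum of FPKM above 0.1 in at least 1 library.

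Genes were called in limma when the Benjamini-Hochberg adjusted p was under 0.05 and the absolute log2 fold change above 1, which 81 genes met as higher in ST and 32 as lower. This was 0.412% of all genes tested for higher in ST and 0.163% for lower. Of the 8 genes within that fit, 2 were called, VEGFA and EPAS1, both higher in ST, and since the genes were selected on this same contrast nothing is read from that count. With the pig number as a replicate block, 4 were called, NRP1 and KDR in addition, when 2.84% of all genes were called as higher in ST. None was called when LT replicate 1, 2 or 3, or ST replicate 1 or 3, was left out, when only 12 to 22 of all genes were called. Without ST replicate 2, 3 were called, when 991 of 19515 genes tested were. For 6 of the 9 genes all ST libraries lay above all LT libraries, which held for 16.6% of all genes, and for none did they lie below, which held for 8.08%. Quantile normalization moved the median of all genes from 0.13 to −0.0056 and the share of calls that were higher in ST from 71.7% to 52.5%, and under it VEGFA alone of the 9 was called. The direction of each of the 8 genes was the same under every alternative that gave it a value, and the difference ranged from 1.44 to 1.75 for VEGFA, 1.04 to 1.20 for EPAS1, 1.16 to 1.52 for NRP1, 0.70 to 1.08 for HIF1A, 0.70 to 1.23 for FLT1 and 0.54 to 0.99 for VEGFC. KDR and FLT4 moved most with single libraries. The difference of KDR was 0.72 without ST replicate 1 and 1.55 without ST replicate 2, and that of FLT4 was −1.26 and −0.17 without the same libraries.

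**Figure D2:**
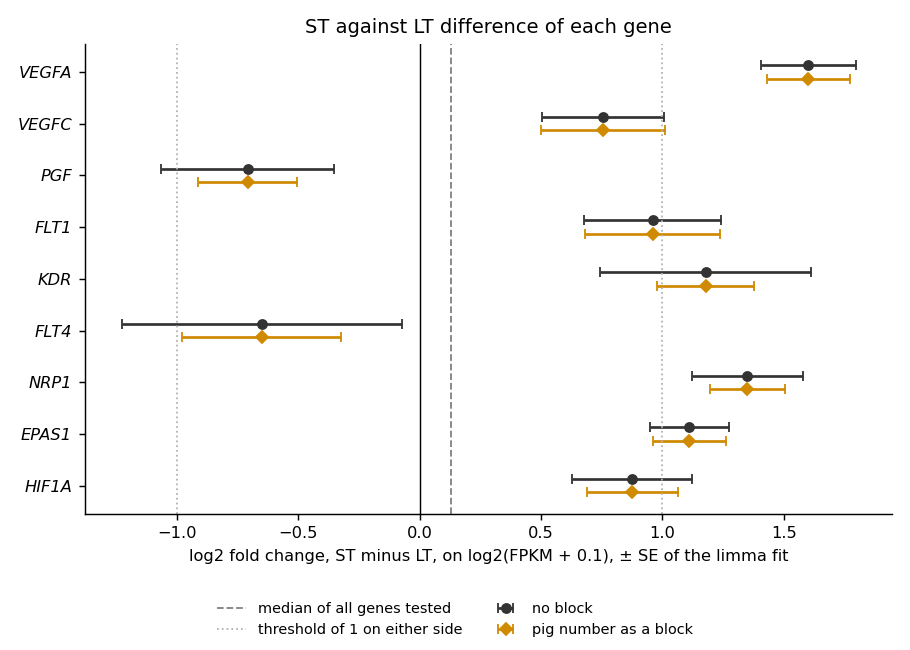
Difference of ST minus LT on the log2(FPKM + 0.1) scale (horizontal axis) for the 9 genes, with the standard error of the limma fit without (circles) and with (diamonds) the pig number as a block; PGF is from the fit over all genes. The dashed line is the median of all genes tested, 0.13, and the error of KDR is 0.43 without and 0.20 with the block.

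The files hold 5 VEGFA transcripts. Most of the sum came from ENSSSCT00000001892, with 7 exons, whose FPKM was 12.6, 6.57 and 4.83 in LT against 27.7, 31.6 and 24.1 in ST. The transcript ENSSSCT00000064013, with 8 exons, had an FPKM of 3.61, 3.39 and 7.33 in LT against 14.0, 8.07 and 16.2 in ST. Both transcripts were higher in every ST library than in any LT library. As a share of the gene, the first held 75.4, 60.5 and 35.2% in LT against 65.3, 77.9 and 58.7% in ST, so that the shares overlapped while the levels did not. In the LT library of pig 3, the 8-exon transcript exceeded the 7-exon one. The transcript with 6 exons, ENSSSCT00000073564, took 7.01% ± 4.01 (SD, n = 3) in LT against 1.59% ± 0.504 (SD, n = 3) in ST, without overlap. The transcript ENSSSCT00000074202 was listed at 0 in all 6 libraries.

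**Figure D3:**
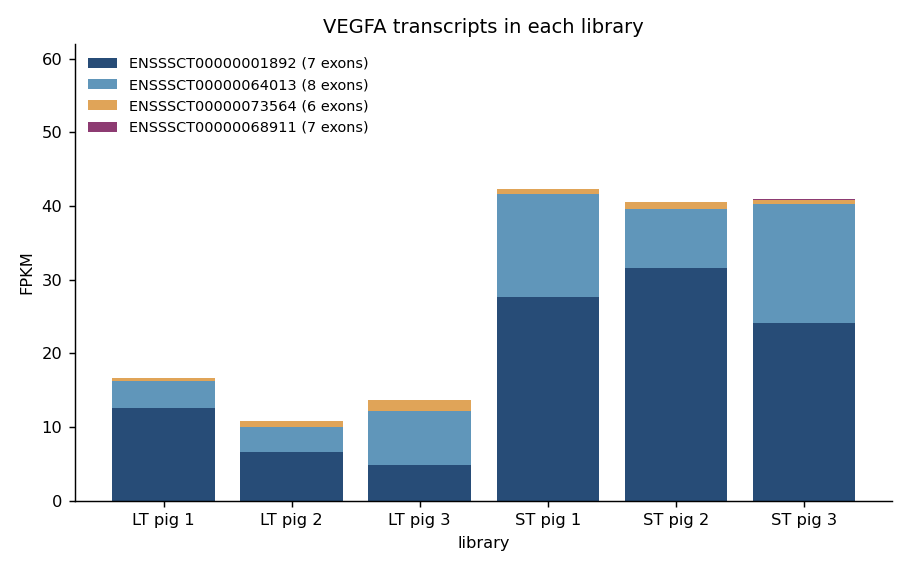
FPKM (vertical axis) of the 4 VEGFA transcripts with any signal, stacked for each of the 6 libraries. The transcript with 7 exons lies at 4.83 to 12.6 in LT and 24.1 to 31.6 in ST, and the one with 8 exons at 3.39 to 7.33 in LT and 8.07 to 16.2 in ST.

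EPAS1 and VEGFC were carried by a single transcript each, with at least 99.8% of the sum in every library. In FLT1, ENSSSCT00000081349 held 59.0% ± 2.60 (SD, n = 3) in LT against 63.2% ± 5.18 (SD, n = 3) in ST. In KDR, ENSSSCT00000036588 held at least 95.2% in every library but the LT library of pig 1, where it held 69.5%. The main transcript of NRP1, ENSSSCT00000085902, had an FPKM of 5.66, 5.65 and 8.90 in LT against 20.2, 17.4 and 16.4 in ST. A second NRP1 transcript, ENSSSCT00000034108, was near 0 in the LT library of pig 3 and in the ST library of pig 2, at 0.066 and 0.054, and between 2.11 and 6.29 in the other libraries.

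The high HIF1A value of pig 2 in ST came from ENSSSCT00000082580, which had an FPKM of 10.3 there and at most 2.01 in any other library. The other main HIF1A transcript, ENSSSCT00000005618, had an FPKM of 7.01, 4.44 and 4.91 in LT against 10.2, 5.72 and 8.54 in ST. For this transcript the muscles overlapped, since pig 2 in ST lay below pig 1 in LT, although the gene sums did not. The transcripts of a gene share most of their exons, and how the fragments were divided between them is an estimate of the assembly.

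Unannotated transcripts were assembled on the opposite strand over 8 of the 9 genes, NRP1 being the exception. Over VEGFA there were 4 such transcripts, whose summed FPKM was 1.42, 0.972 and 1.27 in LT against 4.12, 3.05 and 3.47 in ST. This was 7.51 to 9.72% of the VEGFA value in every library, and the locus spanned nearly the whole gene. Over EPAS1 the opposite strand held 4.54 to 5.93% of the EPAS1 value, with a mean FPKM of 0.935 ± 0.0793 (SD, n = 3) in LT against 1.83 ± 0.316 (SD, n = 3) in ST. The share was larger over FLT1, at 23.6 to 41.9%, and over HIF1A in LT, at 19.8 to 52.4% in LT and 5.17 to 8.04% in ST. It was 12.6 to 30.5% over VEGFC, 7.30 to 19.6% over PGF, 0 to 39.0% over FLT4 and 2.35 to 5.24% over KDR. In contrast to VEGFA and EPAS1, 21 transcripts on the opposite strand of HIF1A had a summed FPKM of 2.18 ± 0.716 (SD, n = 3) in LT against 0.805 ± 0.266 (SD, n = 3) in ST, lower in ST without overlap while HIF1A was higher. Whether the strand was used when fragments were assigned is not given in the sources used here, and if it was not, the 2 strands cannot be told apart.

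VEGF receptors and EPAS1 are abundant in endothelium, and markers of that cell type were higher in ST too. Of 12 endothelial genes 10 were matched, VWF and EGFL7 being the exceptions, and all 10 had a higher mean in ST, with a median log2 difference of 0.94. For 8 of the 10 all ST libraries lay above all LT libraries, which held for 16.6% of all genes tested. Their summed FPKM was 72.6 to 99.0 in LT against 157 to 216 in ST. In limma 3 of the 10 rose in ST, namely PECAM1 with 1.39 ± 0.22 (SE) (adjusted p = 0.0438), CDH5 with 1.22 ± 0.18 (adjusted p = 0.0408) and ESAM with 1.13 ± 0.16 (adjusted p = 0.0402), all of them junction or adhesion proteins of endothelial cells. With the block 4 were called and 5 without ST replicate 2, but none without the variance trend. Of all genes tested, 0.412% were called as higher in ST without the block and 2.84% with it, and 646 of 19515 without ST replicate 2. Over the alternatives the adjusted p of PECAM1 ranged from 0.0187 to 0.180. Unlike the slow-fibre sum, the endothelial sum in the ST library of pig 2, 157, was above all LT libraries. For 4 of the 7 slow-fibre genes taken singly, that library also lay above all LT libraries.

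Of 7 genes of pericytes and smooth muscle, none was called in limma, and 4 had an unadjusted p under 0.05, all higher in ST. This was 57.1% of the list against 18.8% of all genes tested. The sum was 167 to 194 in LT against 255 to 334 in ST. RGS5, a pericyte gene, had a log2 difference of 1.21 ± 0.20 (SE) (adjusted p = 0.0546 from limma). It was called with the block (adjusted p = 0.0221) and without ST replicate 2. The 4 lymphatic genes, by contrast, overlapped between the muscles, with sums of 11.2 to 14.4 in LT against 10.6 to 17.4 in ST, and LYVE1 differed by −0.26 ± 0.27 (SE). None of these 4 was called in limma, 0 had an unadjusted p under 0.05, and PROX1 was called without ST replicate 2. In bulk muscle, more endothelial cells and more RNA of these genes per cell cannot be told apart, and the part of vessel cells in the values of the 9 genes was not tested.

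**Figure D4:**
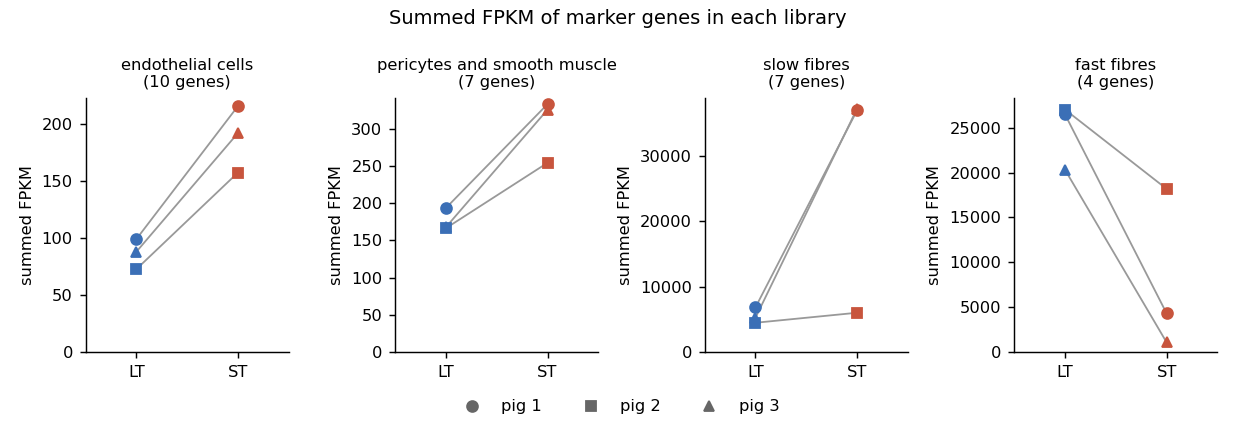
Summed FPKM (vertical axes, each from 0) of marker genes of endothelial cells, pericytes and smooth muscle, slow fibres and fast fibres in LT and ST, with symbols for the 3 pigs and grey lines joining the muscles of a pig. The endothelial sums of 157 to 216 in ST lie above those of 72.6 to 99.0 in LT in each pig, while the slow-fibre sum of pig 2 in ST, 5993, lies within the LT range.

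The slow-fibre list had 7 of 8 genes matched and 0 called in limma, and 4 were called with the block and 7 without ST replicate 2. Of all genes tested, 558 of 19672 were called as higher with the block and 646 of 19515 without ST replicate 2. All 7 slow-fibre genes had an unadjusted p under 0.05, against 18.8% of all genes tested. For 4 of them all ST libraries lay above all LT libraries, against 16.6% of all genes. Its most abundant gene, MYL2, differed by 2.09 ± 0.79 (SE), and by 3.09 without ST replicate 2. The fast-fibre list had 4 of 8 genes matched and 0 called, with 3 at an unadjusted p under 0.05. All 4 were called as lower without ST replicate 2, as were 345 of 19515 genes tested. TNNC2 differed by −2.40 ± 0.88 (SE), and by −3.39 without ST replicate 2 and −1.39 without ST replicate 3. In limma no gene was called among 6 of adipocytes, 6 of fibroblasts, 6 of leukocytes, 4 of red cell precursors and 5 of muscle fibres in general, and 1, 0, 1, 0 and 1 of them had an unadjusted p under 0.05. With the block, and also without ST replicate 2, MYOT of the muscle fibre genes was called as higher and no other gene of these lists was. The summed FPKM overlapped in each of these lists, for instance 68.3 to 198 in LT against 59.5 to 151 in ST for adipocytes, and GATA1 and SLC4A1 were near 0 in all libraries. The log2 difference was below 0 for all 6 adipocyte genes, with a median of −0.82, but that of LIPE was −0.0015 ± 0.91 (SE). The mean FPKM of LIPE was 8.01 in LT against 8.43 in ST, and LIPE and FABP4 were each higher in ST in 2 pigs. For all 6 leukocyte genes the log2 difference was above 0, with a median of 0.46. Of the adipocyte genes LEP alone did not overlap, at a mean FPKM of 0.228 in LT against 0.0593 in ST. The log2 differences of the most abundant genes were −0.33 for FABP4, −0.18 for COL3A1, 0.65 for CD163, −0.17 for HBB and 0.70 for DES, and those of COL3A1 and HBB changed sign when LT replicate 1 or ST replicate 3, and ST replicate 2, respectively, were left out. The part of fibre composition in the values of the 9 genes was not tested.

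The other genes of the VEGF and HIF system were compared next. Of 11 genes, 10 were tested and none was called in limma, with 3 at an unadjusted p under 0.05 and a median log2 difference of 0.25. EGLN3, a HIF prolyl hydroxylase, had an FPKM of 5.85, 3.65 and 6.85 in LT against 21.0, 8.08 and 25.3 in ST. All ST libraries lay above LT, with a difference of 1.61 ± 0.43 (SE) (adjusted p = 0.113 from limma), and it was called with the block (adjusted p = 0.0191) and without ST replicate 2. EGLN1, the main oxygen-sensing hydroxylase, differed by −0.40 ± 0.16 (SE) and lay lower in all ST libraries than in any LT library (adjusted p = 0.239), and NRP2, a co-receptor of VEGFC, by 0.88 ± 0.26 (adjusted p = 0.133). VEGFD, the other ligand of FLT4, had an FPKM of 3.37 to 3.52 in LT against 2.66 to 3.40 in ST. The partner subunit ARNT had an FPKM of 13.3 to 15.4 in LT against 15.7 to 22.8 in ST.

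Classical HIF targets did not share 1 direction. Of 28 genes 25 were matched and 23 tested, none was called in limma, and the median was −0.087. An unadjusted p under 0.05 was found for 3 as higher in ST and 5 as lower, together 34.8% of the list against 18.8% of all genes tested. LDHA, lactate dehydrogenase A, had an FPKM of 2092, 2672 and 935 in LT against 194, 411 and 70.7 in ST. Its log2 difference was −3.28 ± 0.65 (SE) (adjusted p = 0.0665 from limma), and it was called as lower with the block (adjusted p = 0.00992). TFRC, the transferrin receptor, had an FPKM of 38.7, 17.1 and 13.7 in LT against 104, 40.3 and 126 in ST, with a difference of 1.95 ± 0.50 (SE), and was called as higher with the block (adjusted p = 0.0385). P4HA1, a collagen prolyl hydroxylase, differed by 0.64 ± 0.16 (SE) (adjusted p = 0.0982). Without ST replicate 2, 6 of the genes were called, TFRC as higher and LDHA, ALDOA, PGK1, PFKFB3 and DDIT4 as lower. In that setting 646 of 19515 genes tested were called as higher and 345 as lower. With the block, 558 of 19672 were called as higher and 241 as lower. LDHA, ALDOA, PGK1 and PFKFB3 act in or on glycolysis, as do HK2 and ENO1 of the same list, whose log2 differences of 0.79 and 0.28 were positive and not called. The fast-fibre sums were lower in ST as well, and the part of the fibres in these values was not tested.

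Of 28 genes of VEGF receptor signalling 27 were tested and none was called in limma, with 7 at an unadjusted p under 0.05 as higher in ST and 3 as lower, 37.0% of the list against 18.8% of all genes tested, and a median of 0.24. NOS3, the endothelial nitric oxide synthase, had an FPKM of 1.94, 1.22 and 2.96 in LT against 3.77, 4.43 and 5.10 in ST. It differed by 1.15 ± 0.31 (SE) (adjusted p = 0.113) and was called with the block (adjusted p = 0.0460). PRKCA, a protein kinase C, differed by −1.22 ± 0.33 (SE) (adjusted p = 0.113) and was called as lower with the block and without ST replicate 2, and the GTPase gene HRAS by −0.78 ± 0.20 (adjusted p = 0.103).

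Among other angiogenic factors and receptors, 24 of 25 tested genes had a higher mean in ST and the median log2 difference was 0.82. None was called in limma, whereas 14 had an unadjusted p under 0.05, all higher in ST, 56% of the list against 18.8% of all genes tested. With the block 7 were called as higher, namely ANGPT1, EPHB4, FGF1, HEY1, NOTCH4, S1PR1 and VASH1, and 10 were without ST replicate 2. Of all genes tested, 558 of 19672 and 646 of 19515 were called as higher in these settings. S1PR1, the sphingosine-1-phosphate receptor of endothelium, had an FPKM of 7.01, 11.0 and 9.78 in LT against 17.7, 25.6 and 20.4 in ST (1.20 ± 0.23, SE; adjusted p = 0.0640 from limma). EPHB4, a receptor of venous endothelium, differed by 1.30 ± 0.25 (SE) (adjusted p = 0.0650), and VASH1, an inhibitor of angiogenesis made by endothelial cells, by 1.48 ± 0.29 (SE) (adjusted p = 0.0660). The list includes TEK and TIE1, which are also on the endothelial list. It was chosen with earlier results of these data known, so its shares are a description.

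PGC-1 and ERR proteins are transcription regulators of oxidative metabolism that can also act on VEGFA. All 5 genes of this list had a higher mean in ST, with a median log2 difference of 1.37, and 1 rose in limma. PPARA, a receptor that regulates fatty acid oxidation, had an FPKM of 2.94, 3.71 and 3.75 in LT against 7.62, 10.4 and 9.41 in ST (1.37 ± 0.20, SE; adjusted p = 0.0402 from limma). Its call was lost in 8 of 16 alternatives, with an adjusted p of 0.0179 to 0.158. PPARGC1A had an FPKM of 4.49, 5.81 and 3.05 in LT against 10.5, 68.7 and 23.1 in ST, highest in the ST library of pig 2 (2.54 ± 0.60, SE; adjusted p = 0.0880). Its difference was 1.83 without ST replicate 2 (adjusted p = 0.0415) and 3.18 without ST replicate 1 (adjusted p = 0.113). PPARGC1B differed by 0.95 ± 0.20 (adjusted p = 0.0736). With the block 3 were called, PPARA, PPARGC1A and ESRRG, and without ST replicate 2 these 3 and PPARGC1B were. Over all genes tested, 558 of 19672 and 646 of 19515 were called as higher in these settings.

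**Figure D5:**
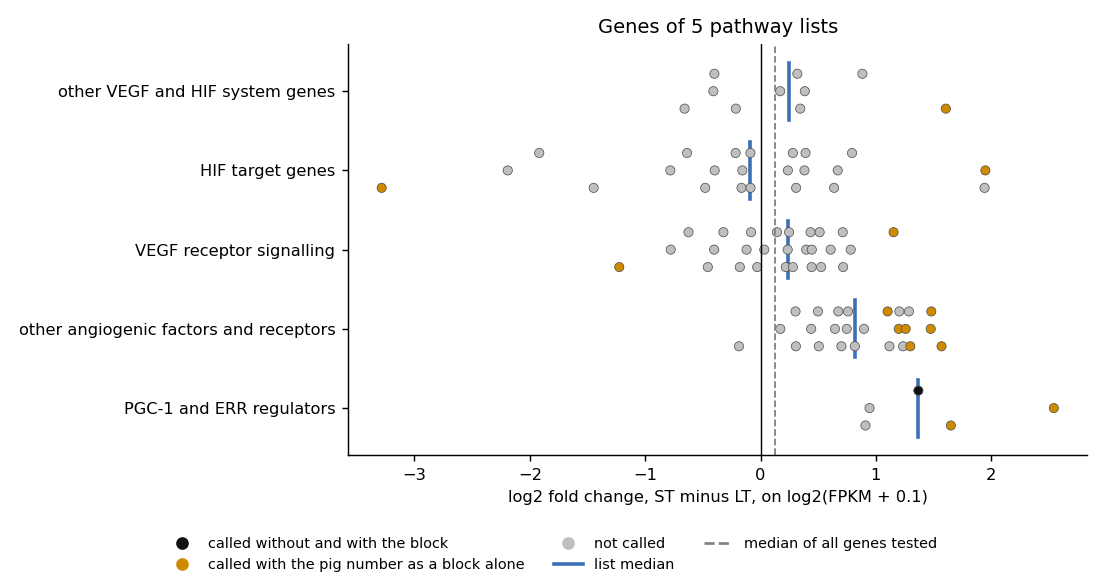
Difference of ST minus LT on the log2(FPKM + 0.1) scale (horizontal axis) for the tested genes of the 5 pathway lists, 1 point per gene, with the list median (blue) and the median of all genes tested (dashed, 0.13). Black marks PPARA, the call made without and with the block, orange the genes called with the block alone; the list medians run from −0.087 for HIF targets to 1.37 for PGC-1 and ERR regulators.

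The genes whose values ran most like those of VEGFA over the 6 libraries were sought among 9962 other genes that carry an Ensembl protein-coding annotation and had a mean FPKM of at least 1. By Pearson's r on log2(FPKM + 0.1) they were SOX18, PECAM1, PLEKHG1, TSPAN14 and STARD8, with r from 0.993 to 0.994. SOX18 had an FPKM of 0.807, 0.331 and 0.481 in LT against 2.50, 2.89 and 2.43 in ST. For EPAS1 they were ANKRD50, SLC2A5, CLIP4, KLHL5 and PRKD1, with r from 0.996 to 0.999, and CLIP4 had an FPKM of 4.48, 3.47 and 4.29 in LT against 23.2, 16.0 and 25.0 in ST. VEGFA and EPAS1 had an r of 0.978 with each other and stood at place 59 and 69 in each other's order. An r above 0.9 with VEGFA was found for 646 genes (6.48%) and with EPAS1 for 778 (7.81%). The 6 points include the difference between the 2 muscles, and r within a muscle was not computed.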

How the data were processed

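Both muscles of 3 Min pigs were sequenced in 6 libraries. Reads were cleaned by SOAPnuke and aligned to Sscrofa11.1 by HISAT2, and StringTie was used for assembly. The authors deposited the FPKM of 72511 transcripts in each library. Counts and depth were not analysed here. The members and gene lists were chosen with earlier results of these data known.

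FPKM was summed per gene ID. Of the genes with an mRNA transcript, 19672 exceeded an FPKM of 0.1 in at least 1 library and entered a limma fit (version 3.58.1, R 4.3.3) of log2(FPKM + 0.1), with a trend of the variance on the mean and Benjamini-Hochberg adjustment. PGF was taken from a fit that also held lncRNA genes, added after seeing the data. The fit was tested on simulated data with independent noise, no pig effect and shifts larger than any member showed. That test does not bear on differences of the members' size or on the pairing. Other steps used Python 3.11.15, pandas 2.3.3 and numpy 2.4.6, and plots matplotlib 3.10.9. Symbols came from the Ensembl ID, and VHL, EGLN2 and BNIP3 were matched by position with at least 80% reciprocal overlap.

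The pairing by pig comes from the study's methods and the replicate numbers. Deviations from the group means correlated at 0.290, 0.261 and 0.292 within pigs and from −0.185 to −0.109 between pigs, so the number pairs the samples. The paper presents muscles of the same pig as a way around differences between individuals, but names no block in its test. The main fit therefore left the pairing unused, and the pig as a block was an alternative.

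Named were all members found; in each pathway list the called genes, up to 4, and otherwise those with the smallest p until 3 were named; in each cell type list the gene with the highest mean FPKM and up to 2 called genes; and 5 genes most correlated with VEGFA and with EPAS1. Other genes were named after their values were seen. Alternatives were the pig as a block, a pseudocount of 0.01 or 1, no filter on FPKM or a filter of FPKM above 1 in at least 3 libraries, FPKM rescaled without mitochondrial transcripts, quantile normalization, no variance trend, annotated transcripts alone, each library left out and, added after seeing the data, all genes with lncRNAs included.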

Additional observations from a re-analysis of the deposited data

How the results depend on the processing

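The number of genes called, 113, was 6 without a filter on FPKM, 61 after quantile normalization, 29 without the variance trend and 799 with the pig number as a replicate block, and from 12 to 991 when a library was left out, the highest without ST replicate 2. Of the members 2 were called, against 0 without the filter, 1 after quantile normalization, 0 without the variance trend, 4 with the block and 0 to 3 with a library left out. With the block, 1 gene was called among the other VEGF and HIF genes, 2 among the HIF targets, 2 in VEGF receptor signalling, 7 among the other angiogenic factors and 3 among the PGC-1 and ERR regulators, against 0, 0, 0, 0 and 1 without it. With a library left out these lists had 0 to 1, 0 to 6, 0 to 1, 0 to 10 and 0 to 4 calls. The last list had 0 calls without the filter, after quantile normalization and without the variance trend. COL3A1, at −0.18, ranged from −0.61 to 0.26 with a library left out and was above 0 without LT replicate 1 (0.14) and without ST replicate 3. HBB, at −0.17, ranged from −0.39 to 0.019 and was above 0 without ST replicate 2. Leaving out a library leaves fewer degrees of freedom, and the causes of the other shifts were not tested. The other genes chosen by the rule, apart from PGF, for which the block was the only alternative, and those picked by correlation, which were not refitted, kept their direction. With 3 libraries per muscle and no counts, p-values rest on the spread between libraries, with variances that limma shares across genes. Each pig gave 1 library per muscle, so pig, sampling and library preparation cannot be told apart in that spread. With the block, the level of each pig is taken out of it.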
